A study of Mus musculus with 2 samples.

Results

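Mouse chromosome 11 carried 3787 of the 61400 regions in which a SAHA-treated osteoblast library held more histone H4 ChIP-seq tags than its DMSO control, or 6.17% of the list. The members are every listed region on that chromosome, in build mm9. The chromosome was selected on its covered share, the bases in such regions as a percentage of its span, which was larger than on any other autosome. Its cover, region count and tags are therefore given as a description and were not tested. The cells were MC3T3 sc4, a mouse osteoblast line from calvaria kept in osteogenic medium with ascorbic acid and beta glycerol phosphate. On day 4 they received 20 µM SAHA (suberoylanilide hydroxamic acid) or its solvent DMSO for 2 hours, and the same agent stayed on during a collagenase digest of 40 min. There was 1 library per condition, so every value below compares these 2 libraries, and its spread between cultures is unknown. The labels name histone H4 as the target of the antibody, while the stated design is a map of its acetylated form.

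Acetylation of the H4 tail neutralises lysine charges, loosens the hold of the tail on DNA and is read by bromodomain proteins. It is laid down by acetyltransferases, removed by histone deacetylases, and found mainly at active promoters, enhancers and gene bodies. SAHA blocks the zinc-dependent deacetylases. Mouse chromosome 11 is known as a gene-rich autosome, and it carries Col1a1, which encodes the main chain of the type I collagen that osteoblasts secrete, as well as the Hoxb genes and Sost, which encodes the Wnt antagonist sclerostin.

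The label "gene-rich" was checked against RefSeq (GRCm38.p6), from which only the number of genes per chromosome was taken. Chromosome 11 holds 1609 protein-coding genes there, or 13.57 per Mb of the span of its regions, against 8.43 per Mb on the other 18 autosomes together. It ranked second, behind chromosome 7 at 13.60 per Mb. Chromosome 7 holds 417 olfactory and vomeronasal receptor genes, which serve smell and pheromone sensing, and chromosome 11 holds 83. Without these receptor genes chromosome 11 had the highest density of the 19 autosomes, at 12.87 genes per Mb against 11.20 on chromosome 17, the next. Among the bone genes of chromosome 11 are Col1a1, Sparc, Phospho1 and Fkbp10 of matrix and collagen processing, and Sost, Nog, Axin2 and Sox9 of signalling. These were listed because they lie there, so their number says nothing of a concentration of bone genes. The chromosome also carries families used in other tissues, among them 27 of 53 keratins, 11 of 25 Ccl chemokines and 8 of 9 Slfn genes. The gene table is of another build than the regions, so no region was assigned to a gene and no sequence is shown.

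The 3787 regions covered 8.34 Mb, or 7.03% of the 118.6 Mb between the first and the last of them. The other autosomes ran from 3.74% on chromosome 14 to 6.70% on chromosome 17. The regions held 1842781 SAHA tags, 1.49% of all SAHA tags kept by the authors. That was 15543 tags per Mb (95% Poisson interval 15521 to 15566), the third highest density after chromosome 19 with 16281 and chromosome 17 with 15781. All Poisson and binomial intervals here cover counting error only. Tags, neighbouring regions and the gaps between them are not independent, so these intervals can be too narrow.

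The cover of chromosome 11 came from many regions of near-average length. It had 31.9 regions per Mb (interval 30.9 to 33.0), second to chromosome 18 with 32.9 (31.6 to 34.2). Neighbouring regions are not independent, so these intervals do not measure a difference between the chromosomes. The regions of chromosome 18 were shorter, with a mean of 1774 bp against 2202 bp, and covered 5.84%. Chromosomes 17 and 19 had longer regions, with means of 2435 and 2656 bp, but only 27.5 and 24.5 per Mb. Against the other autosomes pooled, chromosome 11 had 1.27 times as many regions per Mb and a mean length 1.05 times as large, which together gave 1.33 times the cover. With regions joined across gaps of up to 1 kb, chromosome 11 had the highest region density too, 21.2 per Mb against 20.0 on chromosome 18.

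**Figure D1:**
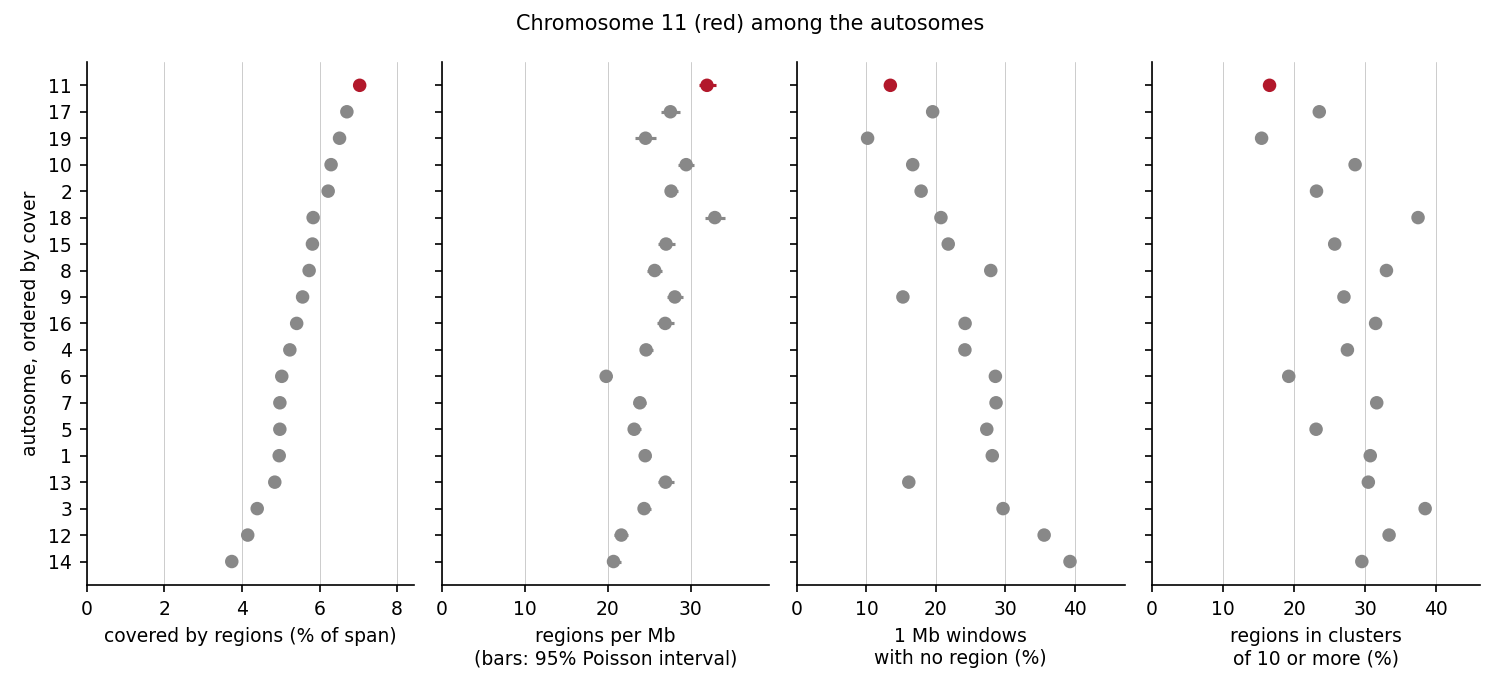
Each row is 1 of the 19 autosomes, ordered by the share of its span covered by SAHA-high regions, with chromosome 11 in red; the panels show cover in percent, regions per Mb with 95% Poisson intervals, 1 Mb windows with no region in percent, and the share of regions in clusters of 10 or more in percent. Chromosome 11 is highest in cover (7.03%), second in regions per Mb (31.9), and second lowest both in empty windows (13.4%) and in clustered regions (16.5%).

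Chromosome 11 was next read in 119 windows of 1 Mb. The cover of a window is the share of its bases inside regions, and a region and its tags belong to the window of its midpoint. A window was called dense at a cover of at least 14.56%, the 90th percentile of all 2395 autosomal windows. On chromosome 11, 17 windows (14.3%) were dense, against 10.0% of all autosomal windows. Chromosomes 17 (18.4%) and 8 (15.5%) had larger shares. The share on chromosome 11 depended on the setting. It was 11.7% with windows shifted by 500 kb, 10.9% with classes by number of regions, and 14.3% with windows of 500 kb. About 10% of all autosomal windows are dense by definition in each of these settings. The planned limit for sparse windows, the 10th percentile, was 0%, so the sparse windows were the empty ones. Chromosome 11 had 16 windows with no region (13.4%) against 24.1% of all autosomal windows, and only chromosome 19, with 10.2%, had a smaller share.

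Chromosome 11 differed from the other autosomes more in the middle of its windows than at their top. Its median window was 6.05% covered (quartiles 1.55 and 11.25%), above the medians of all 18 other autosomes, which ran from 1.12 to 5.14%. Pooled, the other autosomes had a median of 2.71% (quartiles 0.06 and 8.26%). The most covered window of chromosome 11, in contrast, reached 25.5%, rank 15 of the 19 chromosome maxima, and the other maxima ran up to 38.1% on chromosome 2. That window was only number 31 of the 2395 autosomal windows. To gather 50% of the covered bases of chromosome 11, its 26 most covered windows were needed, or 21.8% of them. On the other autosomes the share was 11.0 to 22.0%, with chromosome 19 alone above chromosome 11. Among windows with at least 1 region, mean cover was 8.10% on chromosome 11 and 6.96% on the others, a ratio of 1.16. The share of windows with any region was 86.6% against 75.3%, a ratio of 1.15.

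**Figure D2:**
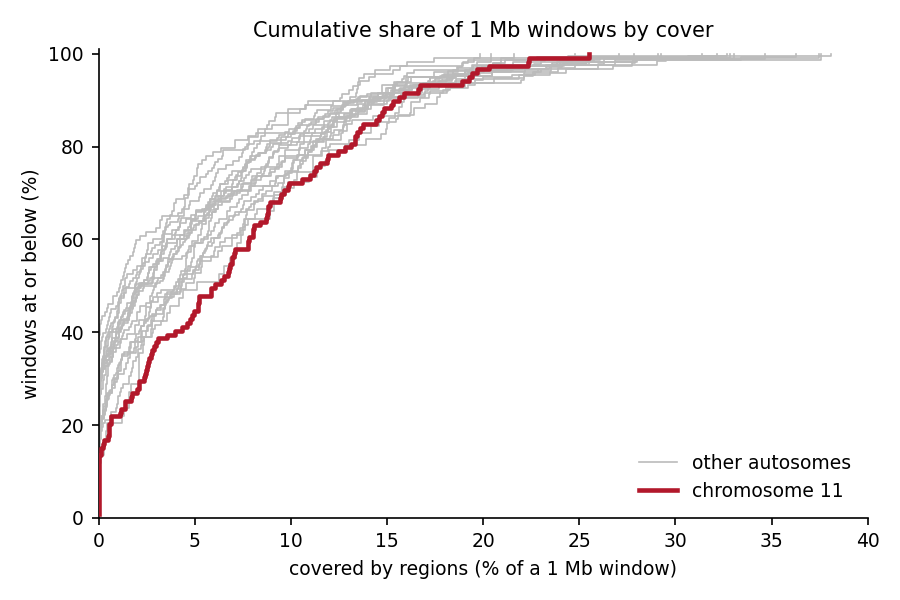
The lines give, for each autosome, the percentage of 1 Mb windows whose cover is at or below the value on the horizontal axis, in percent of the window; chromosome 11 is red and the 18 other autosomes are grey. The red line runs lowest around the median (6.05% against 1.12 to 5.14%) but ends at 25.5%, short of most other lines.

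The dense windows of chromosome 11 were mostly single. Of the 17, 12 stood alone, and the others formed 1 stretch of 3 windows from 59 to 62 Mb and 1 stretch of 2 windows from 119 to 121 Mb. The most covered window, 5 to 6 Mb, had 93 regions (Poisson interval 75.1 to 113.9) over 254.9 kb, with 59150 SAHA tags. The window at 32 to 33 Mb had the most regions, 97 (78.7 to 118.3), over 224.0 kb with 47009 tags. The window at 75 to 76 Mb was covered nearly as far, 223.4 kb, by 71 regions of a larger median length, 1916 bp against 1664 bp. Windows at 97 to 98, 79 to 80 and 95 to 96 Mb followed with 203.1, 197.0 and 194.1 kb. The dense limit cuts a continuous range: the window at 102 to 103 Mb, at 14.58%, lay just inside and that at 85 to 86 Mb, at 14.44%, just outside.

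The stretch from 59 to 62 Mb held 178 regions, 500.5 kb of cover and 122720 tags, with a median region length of 1590 bp and 173.1 tags per kb. The stretch from 119 to 121 Mb held 116 regions over 325.9 kb with 78398 tags, and its median region length was 2092 bp at 172.1 tags per kb. The median summit fold (SAHA height at the summit over the local DMSO background, as computed by the authors' caller) was 3.94 in the first and 3.86 in the second. SAHA tags over the local DMSO level had median ratios of 1.80 and 1.81.

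**Figure D3:**
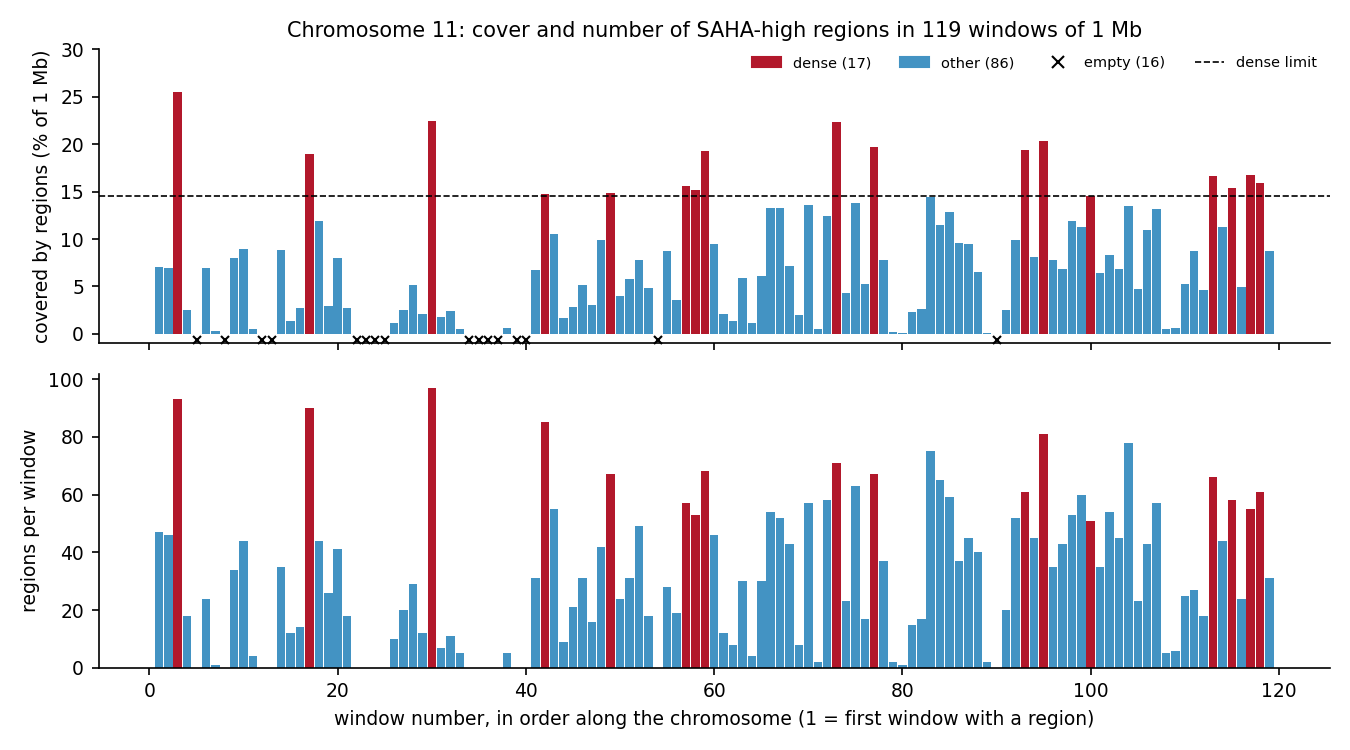
The upper panel shows the cover in percent and the lower panel the number of regions in each of the 119 windows of 1 Mb of chromosome 11, in order; dense windows are red, other windows blue, empty windows marked with a cross, and the dashed line is the dense limit. Dense windows are spread along the chromosome, with the highest bar at 25.5%, while 14 of the 16 crosses lie in the first 40 windows.

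Most empty windows lay near the start of the chromosome. Empty stretches lay at 14 to 16, 24 to 28, 36 to 40 and 41 to 43 Mb, and single empty windows at 7 to 8, 10 to 11, 56 to 57 and 92 to 93 Mb. With the border set after the values were seen, at the end of the last empty stretch (43 Mb), the proximal part had 14 empty windows of 40 and the distal part 2 of 79. By this rule every empty stretch is proximal, so the contrast in empty windows and in cover is partly built in. The proximal part held 787 regions, 19.7 per Mb, and was 4.07% covered. The distal part held 3000 regions (79.2%), 38.0 per Mb, and was 8.50% covered, or 2.09 times as much. Leaving empty windows aside, the ratio was 1.39 (8.72% against 6.26%). Dense windows were found in both parts, 3 proximal and 14 distal.

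The regions themselves were similar in both parts. Median length was 1275 bp proximal and 1402 bp distal. SAHA density was 158.6 and 161.6 tags per kb, summit fold 3.90 and 3.86, and the ratio to the DMSO level 1.76 and 1.78. From 57 to 92 Mb, 35 windows in a row each held at least 1 region, 1265 in all, and a further 29 windows in a row, from 93 to 122 Mb, held 1256 regions. On the other autosomes the longest such run was 13 to 46 windows, so the run of 35 ranked second of 19.

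The longest gap between neighbouring regions was 4.75 Mb, from 23977955 to 28729088. Its left border was a region of 2216 bp with 766 SAHA tags, 345.7 per kb, a fold of 5.31 and a score of 1227.58, where the score is 10 times the −log10 of the caller's p-value. Its right border was a region of 634 bp with 81 tags and a score of 75.39. Listed scores start at 50, and the first quartile of chromosome 11 scores was 77.3. The fold of the right region was 5.79, and its ratio to the DMSO level was 1.93, against 2.70 on the left. The next gap, 4.40 Mb from 35813866 to 40214774, ran from a region of 906 bp with 114 tags (score 58.93) to one of 2407 bp with 383 tags (score 487.13). Gaps of 3.002 Mb (13396863 to 16399009), 2.71 Mb (40576883 to 43287456) and 2.71 Mb (9019754 to 11727908) followed. The last of these was bordered by the 2 flanking regions densest in SAHA tags, with 430.1 and 411.1 per kb. The right one only just passed the list, with a score of 54.76, a fold of 2.41 and a ratio to the DMSO level of 1.16. On the left the score was 714.73, the fold 4.8 and the ratio 1.76. This left region, 2818 bp with 1212 tags, was the only region of its window. The 5 longest gaps all lay in the first 44 Mb. Chromosome 11 had 14 gaps over 1 Mb, and its longest gap was the second shortest of the 19 chromosome maxima, which ran from 3.33 to 12.89 Mb on the others. How many tags can be mapped inside a gap is not in the list, so the part of mappability in the empty stretches was not tested.

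In dense windows regions were both more numerous and longer. The 17 dense windows of chromosome 11 held 51 to 97 regions each (median 67), and the 86 other windows with regions held 1 to 78 (median 29.5). Mean number per window differed by 2.29 times (69.5 against 30.3) and mean region length by 1.29 times (2602 against 2021 bp). Median length was 1579 bp (quartiles 957 and 3113 bp) in dense and 1307 bp (854 and 2390 bp) in other windows. Regions over 5 kb made up 12.9% of regions in dense windows and 7.41% in other windows. The dense windows, 14.3% of all, held 31.2% of the regions, 36.8% of the covered bases and 39.3% of the tags. Since cover defines the class, larger number and length in dense windows are partly built in.

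SAHA density differed less. The median was 166.5 tags per kb (quartiles 139.6 and 210.8) in dense windows and 159.1 (136.2 and 198.7) in other windows of chromosome 11. The genome average is 66.1 tags per kb, so both medians were over 2 times that level. The summit fold had the same median, 3.86, in both classes. The fold was at least 5 in 705 of the 3787 regions, 18.6% (95% Wilson interval 17.4 to 19.9%), against 19.1% of all autosomal regions, so the share on chromosome 11 lay near the background. It was 20.1% in dense and 17.96% in other windows.

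Compared with the dense windows of the other autosomes, those of chromosome 11 held fewer and longer regions. They averaged 69.5 regions of 2602 bp, against 85.1 regions of 2351 bp in the 223 dense windows elsewhere, and were 18.1% against 20.0% covered. The median length of regions in dense windows, 1579 bp, ranked 6 of 19, within a range from 1275 bp on chromosome 18 to 2180 bp on chromosome 19. Median SAHA density in dense windows was nearly equal, 166.5 tags per kb on chromosome 11 and 166.7 elsewhere. The median fold there, 3.86, was at the low end, with single autosomes from 3.86 to 4.15.

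Windows of equal cover could be filled in different ways. At 106 to 107 Mb, 78 regions of 1171 bp (median) covered 134.4 kb, and 1 of them exceeded 5 kb. At 68 to 69 Mb, 54 regions of 1640 bp (median), 7 of them over 5 kb, covered 133.1 kb. The window of longer regions held more tags, 30201 against 25569. The window of longest regions, at 113 to 114 Mb, had 27 regions with a median of 2861 bp and 194.9 tags per kb, and 8 were over 5 kb. At 104 to 105 Mb, 54 regions had a median of only 940 bp and 136.7 tags per kb. These windows were chosen for their values.

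DMSO tags are not listed region by region, so a local DMSO level was recovered from each score and tag count, for the 3755 regions with a score under 3000. It is the background that the caller set against the SAHA tags, at SAHA depth, and is given here as a multiple of the genome average. The level matched a background the caller could have used in 75.1% of these regions, where the DMSO signal can be no higher, and is approximate in the others. The median level of chromosome 11 regions was 1.32 (quartiles 1.06 and 1.74), rank 7 of 19. In 17.5% of regions it was at the average or lower, with a tolerance of 0.1%, against 8.29 to 32.1% on the other autosomes. Where the level matched the genome average, the DMSO signal itself can be lower. The ratio given for such a region is then a lower bound.

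The ratio of SAHA tags to that level had a median of 1.77 on chromosome 11 (quartiles 1.56 and 2.01), rank 14 of 19 in a range from 1.67 on chromosome 19 to 1.85 on chromosome 7. It was at least 2 in 970 regions (25.8%), against 28.0% of all autosomal regions. In 539 regions the level was the DMSO count of the region itself. These had 231 SAHA and 81 DMSO tags (medians) before depth scaling by 1.62, and their median ratio was 1.73. Dense and other windows had nearly the same median ratio, 1.78 and 1.77, at levels of 1.34 and 1.31 times the average. Elsewhere the ratios were 1.81 in dense and 1.80 in other windows. Among windows with at least 10 regions, the median ratio ran from 1.67 to 1.87 over the 17 dense windows and from 1.56 (121 to 122 Mb) to 2.19 (63 to 64 Mb) over 71 others.

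**Figure D4:**
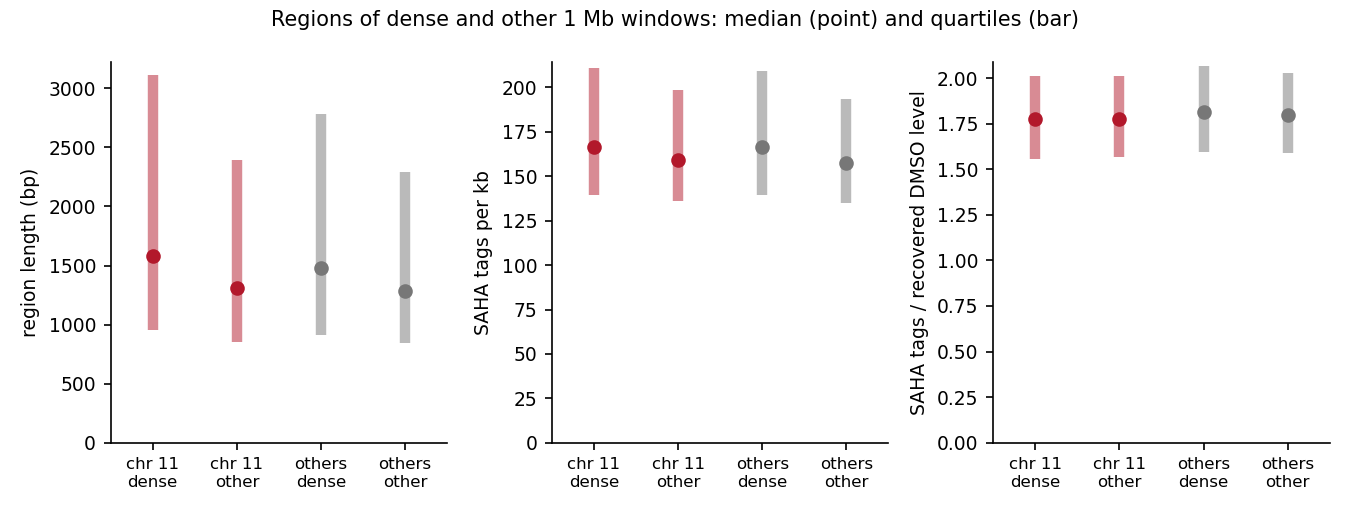
Points are medians and bars run between the quartiles of region length in bp, SAHA tags per kb, and the ratio of SAHA tags to the recovered DMSO level, for regions in dense and other 1 Mb windows of chromosome 11 (red) and of the 18 other autosomes (grey). Regions of dense windows are longer (1579 against 1307 bp on chromosome 11), while the ratio is nearly level (1.78 and 1.77).

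Long regions held a large part of the chromosome's tags. The 345 regions over 5 kb, 9.11% of all, made up 31.9% of the covered bases and 42.1% of the tags, and lay in 77 of the 119 windows. On the other autosomes 7.83% of regions were as long and held 38.4% of the tags. The 63 regions over 10 kb held 13.9% of the tags of chromosome 11 at a median of 314.3 tags per kb. Their recovered DMSO level was 3.39 times the average and their median ratio 1.31, among the 54 with a recovered level. At the short end, 95 regions of up to 600 bp had a median of 126.8 tags per kb, a DMSO level at the average and a ratio of 1.86. Over the 6 length bands, from up to 600 bp to over 10 kb, SAHA density and DMSO level thus rose and the ratio fell. This held on chromosome 11 and on the other autosomes alike. The median summit fold rose instead, from 3.65 in the shortest band to 5.44 in the longest on chromosome 11. On the other autosomes it went from 3.75 to 5.54. The ratio, which is missing for regions of the highest scores, covered 315 of the 345 regions over 5 kb on chromosome 11. A long region passes the score limit at a smaller ratio, which contributes to the fall of the ratio by construction. Why the fold and the ratio differ was not tested.

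The regions of chromosome 11 with most tags were long, with much DMSO signal. The first, at 120551352 to 120568671, spanned 17.3 kb and held 7639 SAHA tags (Poisson interval 7469 to 7812), a density 6.67 times the genome average. The recovered DMSO level was about 4.75 times the average, and the ratio about 1.403 (interval 1.37 to 1.43, from the SAHA tags alone, as in the other regions here). At 51683791 to 51700695, 7383 tags stood at 6.60 times the average density over a DMSO level of about 6.27 times, a ratio of about 1.05 (1.03 to 1.08) and a score of 54.16. The longest region, at 61831153 to 61851736, spanned 20.6 kb with 7210 tags, a DMSO level of about 4.92 times the average and a ratio of about 1.08 (1.05 to 1.101). It was also the region with most tags in the stretch from 59 to 62 Mb, and the first was that of the stretch from 119 to 121 Mb. The levels of these 3 matched no background. Their summit folds, in the order given, were 6.42, 4.02 and 5.91, above the chromosome median of 3.86.

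The regions of highest summit fold were others. Folds of 13.69 and 12.21 were found at 74857461 to 74869209 (3752 tags) and 69192774 to 69205501 (3438 tags), both with a score of 3100. That value was shared by 29 regions of chromosome 11, whose highest score was 3217.5, and no level was recovered from 3000 up. The third, 11.47, was at 97423416 to 97426963, a region of 3548 bp with 863 tags. Its DMSO level was the genome average and its ratio 3.68 (3.44 to 3.93). All 3 had a deposited FDR of 100%, as did 485 regions of chromosome 11 in all (12.8%). By this caller's known definition, at least as many regions then reach the same score with the libraries exchanged. No region with an FDR of 100% scored below 557.07, while the third quartile of chromosome 11 scores was 291. This FDR thus fell on regions of high score. The FDR of chromosome 11 regions ran from 58.24% to 100%, so none was low.

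Among regions with a score under 3000, the 3 highest scores were 2887.38, 2870.53 and 2798.28. The first, at 90321461 to 90326389, held 1444 tags over 4929 bp at a ratio of 3.11, with its summit at 10.7% of its length. The second, at 109662669 to 109674517, held 3958 tags over 11.8 kb at a ratio of about 1.89. The third, at 20104763 to 20111777, held 1462 SAHA tags against 298 DMSO tags, a scaled ratio of 3.02. The highest ratio with a DMSO count of its own was 3.33, at 74914212 to 74917409, from 934 SAHA tags and 173 DMSO tags. The highest ratio of any level, 4.27 (3.92 to 4.64), belonged to a region of 2001 bp with 565 tags at 77743579 to 77745579, where the DMSO level was the genome average. The last 2 were picked after their values were seen.

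Regions of chromosome 11 were more spread out than those of most autosomes. Of its 3786 gaps between neighbours, 63.8% were 10 kb or shorter (Wilson interval 62.3 to 65.4%), the second lowest share of the 19 autosomes after chromosome 19 (57.2%), with chromosome 18 highest at 73.7%. At 1 kb or shorter the share was 33.7%, against 36.6% on the other autosomes pooled. When neighbours no more than 10 kb apart were joined, 1370 clusters resulted, and 616 of them were single regions. The 44 clusters of 10 or more regions held 16.5% of the regions of chromosome 11, against 28.6% on the other autosomes. Only chromosome 19 had a lower share, 15.4%, and the highest was 38.4% on chromosome 3. Summits lay at 50.9% of the region length (median), and in 1.03% of regions within 10% of an end, the lowest share of the 19 autosomes, which ran from 1.11 to 1.69% elsewhere.

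The largest cluster, at 5178365 to 5354410 in the most covered window, held 42 regions over 176.0 kb and was 55.4% covered. Its 19717 tags gave 202.0 per covered kb, 3.05 times the genome average. The regions were 609 to 11426 bp long, with a median fold of 4.08 and a median ratio of 1.85 (range 1.17 to 2.57). A cluster of 27 regions at 104203736 to 104297026 was looser, with 33.1% of 93.3 kb covered by short regions (median 783 bp) of 144.0 tags per kb. Its DMSO level was at the genome average (median) and its median ratio 1.91. The third, 25 regions at 32360020 to 32419256, was the most filled, with 72.3% of 59.2 kb covered and a median ratio of 1.88. It lay in the window with most regions. A fold of at least 5 was reached by 10 of 42, 8 of 27 and 7 of 25 regions of the 3 clusters, against 19.1% of all autosomal regions, and nothing is read from these small counts.

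**Figure D5:**
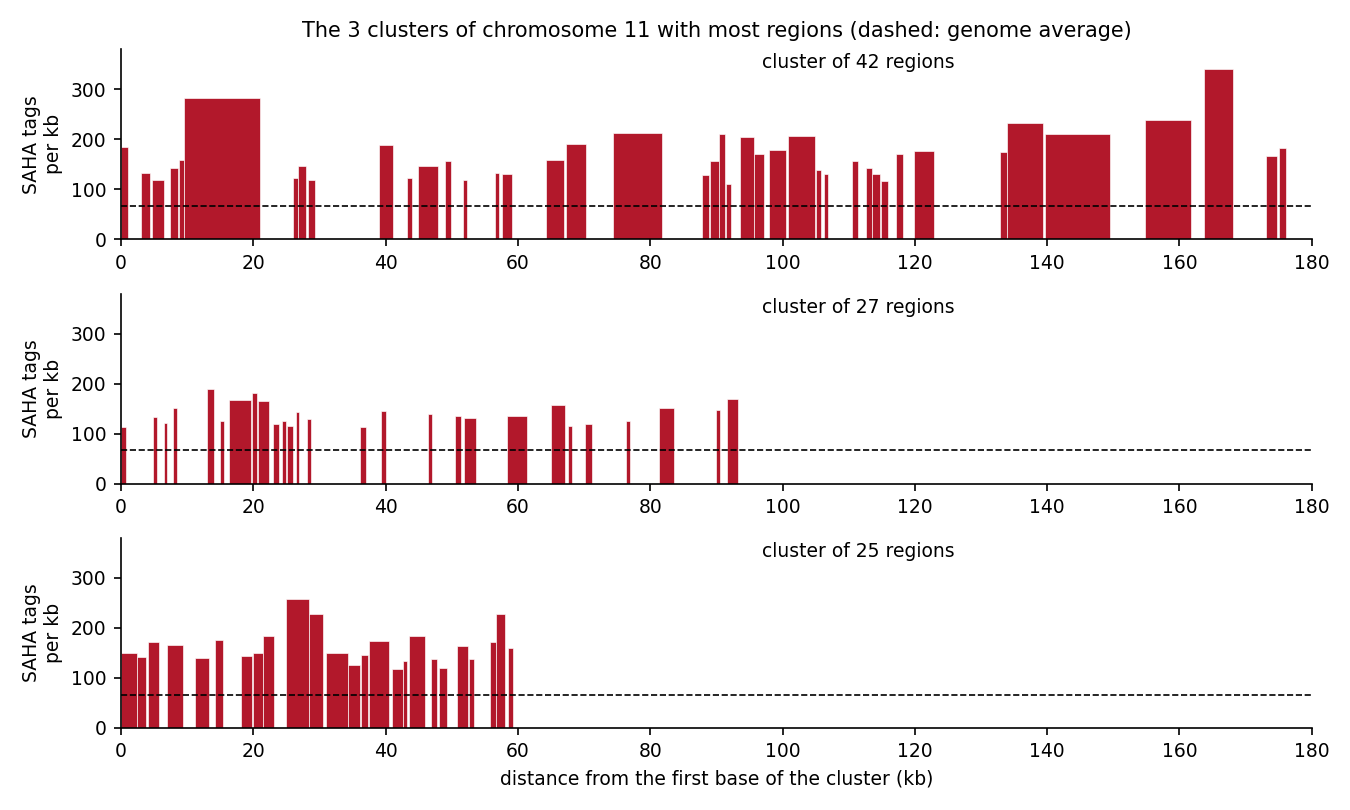
Each bar is 1 region, drawn from its start to its end along the distance from the first base of its cluster in kb, with SAHA tags per kb as height; the panels show the clusters of 42, 27 and 25 regions, and the dashed line is the genome average of 66.1 tags per kb. The cluster of 42 mixes short regions with blocks of up to 11.4 kb, while the cluster of 27 consists of short, separate regions.

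Across the 19 autosomes, cover went with gene density. Pearson's r between genes per Mb and covered percent was 0.61 (Spearman's rho 0.60), and 0.66 (0.65) without olfactory and vomeronasal receptor genes. With regions per Mb r was 0.23, and with the share of empty windows -0.50. These are descriptions over 19 chromosomes of the same 2 libraries, which share the caller, the depth and, through the span, a denominator. Chromosome 11 was chosen for the highest of these cover values. Chromosome 7 was 4.98% covered, with 28.7% of its windows empty. Without the receptor genes chromosome 7 had 10.81 genes per Mb, against 12.87 on chromosome 11. By the same count chromosomes 17 and 19 had 11.20 and 11.09, and were 6.70% and 6.52% covered. Chromosome 10, with 7.38, was 6.30% covered. Why single autosomes depart from the relation was not tested.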

How the data were processed

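ChIP-seq of histone H4 was done on 1 SAHA and 1 DMSO library of MC3T3 sc4 cells. The submitters' processing notes name MACS 1.4.0rc2, BWA 0.5.9, CASAVA 1.7.0 and SAMtools, and build mm9. Per the file headers, MACS took SAHA as ChIP and DMSO as control, with a p cutoff of 1e-05 and at most 3 duplicate tags per position, and scaled the smaller library to the larger. The file headers give 123676661 kept SAHA tags (97.4%) and 76214516 kept DMSO tags (65.6%). This unequal loss enters every background. The deposited columns were used as they stand: SAHA tag counts per region, a score of 10 times the −log10 p, the ratio called fold enrichment, and the FDR in percent. Lists of single libraries, or of DMSO-high regions, were not analysed here.

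In Python 3.11.15 (pandas 2.3.3, scipy 1.17.1), regions, cover and tags were summed per autosome and per 1 Mb window. The DMSO level was recovered as the Poisson mean at which more than the listed tags give the listed score, and matched to the genome average or to whole scaled DMSO tags in the region, 1 kb or 10 kb, within the rounding of the score (0.005). Scores simulated with this same formula were inverted as a check of the arithmetic. That check cannot show whether the caller's scores follow the formula. Regions were named by rank in tags, fold, score, length, gap and cluster size. With 1 library per condition no test was made. The members and lists were chosen with earlier results of these data known. Gene lists were not placed on the regions, for lack of an annotation in mm9.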

Additional observations from a re-analysis of the deposited data

How the results depend on the processing

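No paired analysis was possible because each condition has 1 library and no test was made. Over 10 results and 43 alternatives, 17 values stayed within the counting interval (or within 1.5 times, for counts) and 26 did not. At a score of at least 100, chromosome 11 had 19.9 regions per Mb, 12911 tags per Mb and 5.54% cover. At a fold of at least 5 it had 5.95 regions per Mb, 4933 tags per Mb and 1.94% cover. Joining across 1 kb gave 21.2 regions per Mb and 7.36% cover, with the bases of the joined gaps counted as covered. Chromosome 11 stayed first in cover under these 3 settings. Counts of windows change with their size by construction. Dense were 34 at 500 kb (14.3% of windows, as at 1 Mb) and 7 at 2 Mb (11.7%). With windows shifted by 500 kb, 14 were dense (11.7%). A score of at least 100 also left 14 (11.8%), and classes by number of regions gave 13 (10.9%). Each limit was the 90th percentile of all autosomal windows in that setting, so about 10% of those are dense by definition. The 95th percentile left 8 dense (6.72%), where about 5% of all autosomal windows are. Empty were 53 at 500 kb (22.3%) and 5 at 2 Mb (8.33%). The shares of empty windows over all autosomes were not computed for these sizes. In dense windows, a score of at least 100 gave medians of 2274 bp, 185.8 tags per kb, fold 4.24 and ratio 1.88. A fold of at least 5 gave 2650 bp, 206.7 tags per kb, fold 5.83 and ratio 2.25. Median length was 1426 bp with classes by number of regions and 1428.5 bp at 2 Mb. With levels matched to a background only, an alternative added after the data were seen, the ratio was 1.80. The share of gaps was 33.7% for a limit of 1 kb, and 53.9% for 10 kb at a score of at least 100. Stricter limits leave fewer regions by construction; the cause of other shifts was not tested. Alternatives planned for genes were not run. The unequal loss of duplicates cannot be undone from the list, and no alternative stands in for replicates.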
